A study of Rattus norvegicus with 9 samples.

Results

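Genes of MHC class II antigen presentation were examined in rat knee cartilage. They were the 8 entries of the expression table whose gene name was RT1-Ba, RT1-Bb, RT1-Da, RT1-Db1, RT1-DMa, RT1-DMb, Cd74 or Ciita, out of 32043 genes. RNA sequencing covered 3 groups with 3 libraries each, from male Sprague-Dawley rats that were 8 weeks old when obtained. Control rats (labelled nc) had the joint capsule opened and sutured. Model rats (labelled koa, for knee osteoarthritis, KOA) underwent the modified Hulth operation, in which 2 knee ligaments are excised and the medial meniscus removed, with forced exercise afterwards. SYD rats (labelled syd) had the same operation and then received Shengyu decoction, a herbal extract, by gavage for 4 weeks. The study's text names its highest dose as the one sequenced, whereas the labels carry no dose. Tissue was taken 8 weeks after surgery in all groups. The sources do not say whether each library came from 1 rat, so the p-values below measure the spread between libraries, which may be partly technical.

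MHC class II molecules present peptides from the endosome to CD4+ T cells. An alpha and a beta chain (in the rat, RT1-Ba with RT1-Bb and RT1-Da with RT1-Db1) assemble on the invariant chain, Cd74, which blocks the peptide groove until proteases degrade it. The dimer of RT1-DMa and RT1-DMb then removes the last fragment and edits the bound peptide, and Ciita is the coactivator that switches these genes on. B cells, dendritic cells and macrophages use this set constitutively or after stimulation, and interferon gamma induces it in other cells, including those of an inflamed joint.

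In the table, 6 of the 8 genes lie in the MHC on chromosome 20. The classical chains were listed at chr20:4512911-4518455 (RT1-Da, plus strand), chr20:4548666-4558258 (RT1-Db1, minus), chr20:4575134-4579744 (RT1-Ba, plus) and chr20:4596559-4607597 (RT1-Bb, minus). The editing pair stood at chr20:4693103-4700340 (RT1-DMb, minus) and chr20:4707028-4710432 (RT1-DMa, minus). Cd74 was at chr18:54256778-54266003 (plus) and Ciita at chr10:5140178-5187440 (minus). The table does not state the build of these positions, and the values are per whole gene.

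The promoters of class II genes carry an X box, bound by the RFX complex, and a Y box, bound by NF-Y, which together recruit Ciita. RefSeq windows from 250 bases before to 50 bases after the start site (build GRCr8) were at hand for 6 of the 8 genes, and RT1-DMb and Ciita had no entry. Both strands were searched for ACNGATG, the end of the X box, and GATTGG, the Y box core, which share no bases in the matches shown. The stretches below are shown because they are the sequence feature that most of these genes share, called or not, and capitals mark the matches.

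RT1-Da: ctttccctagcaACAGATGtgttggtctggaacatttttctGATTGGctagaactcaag
RT1-Db1: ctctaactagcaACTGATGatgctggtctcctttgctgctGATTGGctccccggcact
RT1-Bb: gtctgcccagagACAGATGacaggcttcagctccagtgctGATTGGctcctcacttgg
RT1-DMa: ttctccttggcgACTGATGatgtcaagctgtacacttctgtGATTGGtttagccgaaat
RT1-Ba: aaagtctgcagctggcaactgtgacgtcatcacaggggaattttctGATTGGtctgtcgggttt

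These lie at chr20:4515324-4515382 (plus strand), chr20:4560226-4560283 (minus), chr20:4604163-4604220 (minus), chr20:4712383-4712441 (minus) and chr20:4576967-4577030 (plus) of GRCr8, which are not comparable with the positions of the expression table. RT1-Da, RT1-Db1, RT1-Bb and RT1-DMa held both motifs in 1 orientation, with 21 or 22 bases between them. Over all 33469 promoters of the table, 32 (0.0956%) held the pair at a spacing of 10 to 40 bases, while 10.2% held ACNGATG and 14.8% held GATTGG. The 32 include these 4 genes. They also include RT1-DOb and RT1-Db2, class II genes outside the 8, with 19 and 20 bases between the motifs. RT1-Ba held GATTGG alone, and the Cd74 window held neither string. A search for exact strings misses variants of either box, so it does not show that these promoters lack them. The motif pair was thus shared by RT1-DMa, which was called lower in the model group, and by RT1-Da and RT1-Db1, which were not called.

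**Figure D1:**
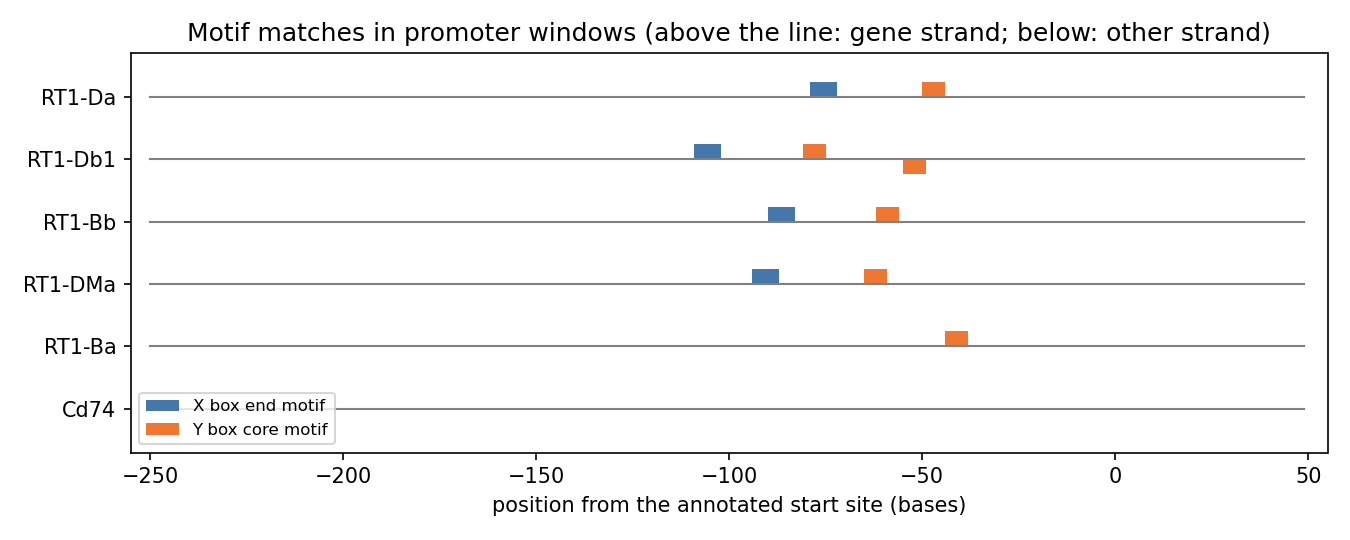
Matches to the X box end (blue) and the Y box core (orange) along the promoter windows of 6 class II genes, in bases from the annotated start site. In RT1-Da, RT1-Db1, RT1-Bb and RT1-DMa the blue match precedes the orange match by 21 or 22 bases, and the Cd74 window has no match.

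The libraries held 14914121 to 19510537 reads, recovered as whole reads from the FPKM (fragments scaled by gene length and library size, a level per length). The share of reads on the 37 mitochondrial genes differed widely, at 4.05% to 4.86% in control, 39.5% to 90.7% in model and 23.7% to 72.7% in SYD libraries. Model libraries 1 and 3 therefore had only 1744769 and 3611325 other reads, against 14306782 or more in each control library. Cartilage markers were not uniform either: the summed FPKM of 16 chondrocyte genes was 514 to 12308 in control, 207 to 965 in model and 189 to 1648 in SYD libraries. Col2a1 was present in all 9, and Matn1 was at 0 in all model and SYD libraries. The part these features had in the results below was not tested, and the alternatives named show only how the values shift. Control libraries did not overlap the others in mitochondrial share. Fits against control with this share as a covariate therefore cannot tell it apart from the group.

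All 8 genes together had a summed level of 97.4, 100.1 and 115 FPKM in control, 123, 55.2 and 92.2 in model and 84.5, 91.3 and 111 in SYD libraries. The group ranges overlapped in every comparison. Between 1288 and 10981 reads per library lay behind these sums. The invariant chain Cd74 gave 54.6% to 63.8% of the summed FPKM in each library, so the sum mostly follows this gene. In bulk tissue, fewer cells of a type and less RNA per cell cannot be told apart.

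Within the control group, the order of mean FPKM was Cd74 (62.1 ± 8.42, SD, n = 3), RT1-DMb (17.4 ± 0.580), RT1-DMa (10.2 ± 0.844), RT1-Da (9.55 ± 1.90), RT1-Db1 (3.04 ± 0.448), Ciita (0.751 ± 0.107), RT1-Ba (0.661 ± 0.0952) and RT1-Bb (0.434 ± 0.0664). RT1-DMa and RT1-Da overlapped in this order, as did Ciita and RT1-Ba. In the model group RT1-DMa (2.22 ± 2.002) stood in this order below RT1-Db1 (3.90 ± 2.88), with overlapping values. RT1 genes are close relatives, and reads shared between copies could have been split in counting, so their separate levels are uncertain.

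**Figure D2:**
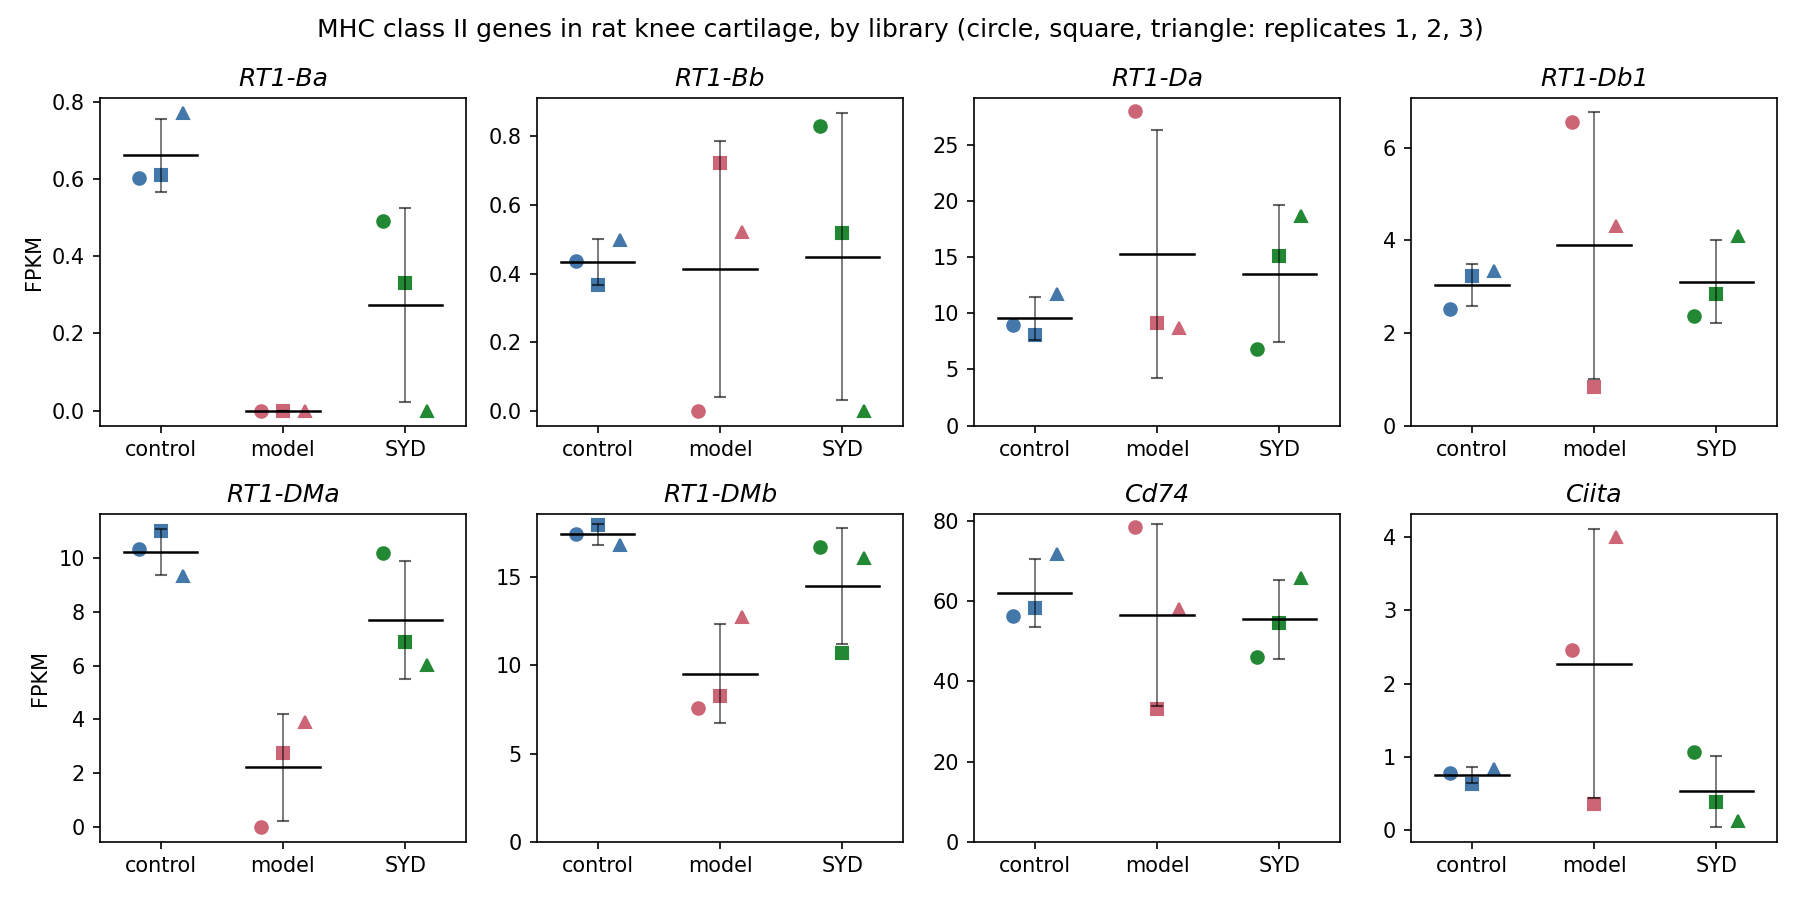
FPKM of the 8 class II genes in each library, with group means (lines) and SD (bars), n = 3 libraries per group. RT1-DMa and RT1-DMb lie lower in all 3 model libraries than in any control library, RT1-Ba is at 0 in all model libraries, and Cd74, RT1-Da and RT1-Db1 overlap between groups.

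When compared with the control group, RT1-DMa was called lower in the model group and RT1-DMb lay lower in every model library, while the invariant chain, the RT1-D chains and Ciita did not pass the test. Of the 6 genes that passed the filter (mean FPKM of at least 0.5), 1 was called lower and 0 higher at the study's criteria (unadjusted p under 0.05 and a log2 fold change beyond 1), while 11.2% of all 13898 tested genes were called lower. No member had an adjusted p under 0.05 in limma, against 2.59% of all tested genes, and 2 had an unadjusted p under 0.05. The median log2 fold change was -0.07 over the 6 genes and -0.23 over all tested genes. A call of 1 gene in 6 is not set apart from this background.

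RT1-DMa, the alpha chain of the editing dimer, was at 10.3, 11.0 and 9.35 FPKM in control and at 0, 2.76 and 3.89 in model libraries. All model libraries were below all control libraries. Model library 1 had 0 reads on this gene, which allows up to 0.497 FPKM at its depth (3 reads, for counting error only). That library had reads on 9300 genes, against 18909 to 19337 in the control libraries. Some other genes with control levels in this range or above, Tap2 and Tie1 among them, were also at 0 in it. Whether the 0 for RT1-DMa reflects the tissue or the library was not tested. The fitted log2 fold change of FPKM + 1 was -2.09 (SE 0.634, unadjusted p = 0.0157, adjusted p = 0.152, limma), and the exact permutation test gave p = 0.1, the smallest possible with 3 against 3. Without model library 1, the library richest in mitochondrial reads, the change was -1.39 (adjusted p = 0.0448 in limma). The call was lost without control library 1 (unadjusted p = 0.0513, limma) or control library 2 (unadjusted p = 0.0545, limma). With the mitochondrial share as a covariate the change was -0.56 (unadjusted p = 0.704, limma). That share did not overlap between the 2 groups, so this fit cannot tell it apart from the group.

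RT1-DMb, the beta chain of the same dimer, was at 17.4, 17.96 and 16.8 FPKM in control and 7.58, 8.26 and 12.7 in model libraries. The groups did not overlap here either. The log2 fold change was -0.84 (SE 0.266, unadjusted p = 0.0189, adjusted p = 0.164, limma), short of the fold criterion. It met both criteria in voom (-1.02, unadjusted p = 0.0188), in TPM without mitochondrial genes (-1.12, unadjusted p = 0.00301, limma) and without model library 3 (-1.05, unadjusted p = 0.00209, limma). With a replicate block its unadjusted p was 0.0712 in limma. Leaving out any 1 control library gave unadjusted p-values of 0.0587 to 0.0608 in limma. The mitochondrial covariate gave 0.143 in limma, and voom without a filter gave 0.0556. Both editing genes stayed lower in the model group under every scaling and test tried.

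The classical chains behaved less uniformly. RT1-Ba, the alpha chain of the B isotype, was at 0.603, 0.609 and 0.771 FPKM in control (25 to 42 reads) and at 0 in all 3 model libraries. It was below the filter, and at a floor of 3 reads per library the model mean was at least 1.97-fold lower than the control mean. In model library 2 alone, the deepest of its group outside the mitochondrial genes, it was at least 8.05-fold lower. Without the filter, its adjusted p was 0.0108 in limma on log2(FPKM + 1) and 0.117 in voom on the recovered reads. RT1-Bb, its beta partner, was at 0.437, 0.366 and 0.499 FPKM in control and 0, 0.723 and 0.520 in model libraries, so these ranges overlapped. The B isotype thus had reads on its beta chain and none on its alpha chain in model libraries 2 and 3.

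RT1-Da, the alpha chain of the D isotype, was at 8.94, 8.03 and 11.7 FPKM in control and 28.0, 9.11 and 8.70 in model libraries. Its high mean in the model group came from library 1. RT1-Db1, the D beta chain, was at 2.52, 3.24 and 3.35 in control and 6.55, 0.829 and 4.31 in model libraries. The log2 fold changes were 0.44 (SE 0.479) for RT1-Da and 0.06 (SE 0.585) for RT1-Db1, with adjusted p-values of 0.654 and 0.970 in limma. Both turned negative when FPKM was rescaled to TPM or the mitochondrial share entered as a covariate. In TPM the median log2 fold change over all tested genes was itself -2.60.

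Cd74 was at 56.3, 58.2 and 71.8 FPKM in control and 78.6, 33.1 and 58.1 in model libraries, and its fitted change was -0.21 on the log2 scale (SE 0.352, adjusted p = 0.783, limma). Model libraries lay both above and below the controls. Cd74 was called lower with the mitochondrial share as a covariate (-1.68, unadjusted p = 0.0103, limma) and in TPM (-3.37, adjusted p = 0.0151, limma). In TPM, however, 10407 of all 13898 tested genes were called lower, against 1183 with the covariate. The TPM call is therefore not set apart from the shift of all genes. Ciita, the coactivator, was at 0.787, 0.631 and 0.837 in control and 2.46, 0.354 and 4.001 in model libraries (log2 fold change 0.71, SE 0.524, adjusted p = 0.516, limma). Without model library 2 it was called higher, at 1.25 (SE 0.270, adjusted p = 0.0407, limma). Its sign flipped under TPM, under voom and with the mitochondrial covariate. Across the 8 genes, the groups did not overlap for RT1-Ba, RT1-DMa and RT1-DMb, all lower in the model group, while 20% of all tested genes were lower without overlap.

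**Figure D3:**
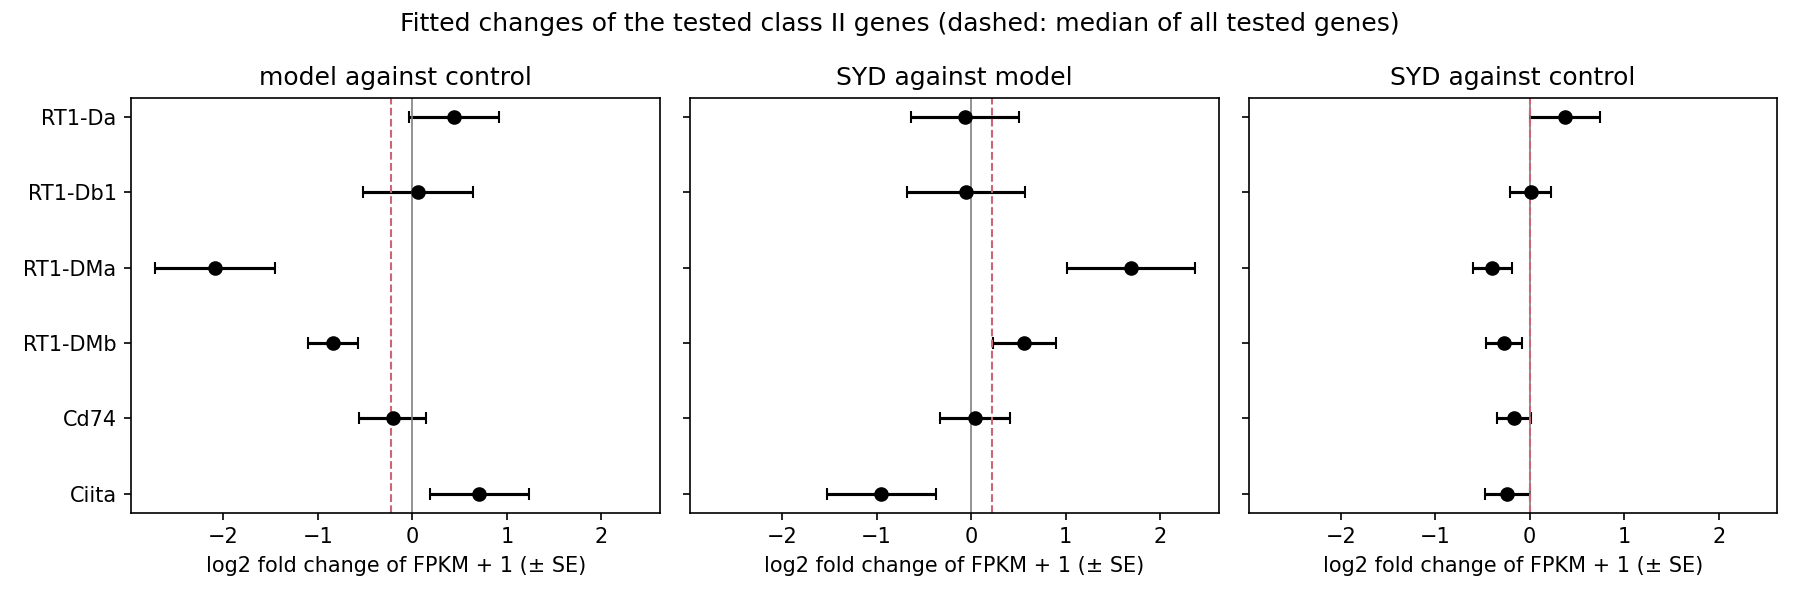
Log2 fold change of FPKM + 1 with its SE (bars) for the 6 tested class II genes in each comparison, each from a fit of 6 libraries (3 per group). RT1-DMa stands at -2.09 in model against control and 1.69 in SYD against model, comparisons that share the model libraries, and the dashed line marks the median of all tested genes.

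Ratios within a library do not depend on how libraries are scaled, and were added after the data had been seen. RT1-DMa was 18.3%, 18.9% and 13.02% of Cd74 by FPKM in control, and 0%, 8.32% and 6.70% in model libraries. The model ratios were all below the control ratios (exact permutation p = 0.1, the smallest possible). Against its own partner RT1-DMb, RT1-DMa was 59.2%, 61.4% and 55.6% in control and 0%, 33.4% and 30.6% in model libraries (exact permutation p = 0.1). RT1-DMa was thus lower relative to its partner in all 3 model libraries. RT1-DMb was 23.4% to 31.0% of Cd74 in control and 9.64% to 24.9% in model libraries, which overlap (exact permutation p = 0.2). RT1-Da was 13.8% to 16.3% of Cd74 in control and 15.0% to 35.6% in model libraries (exact permutation p = 0.3).

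**Figure D4:**
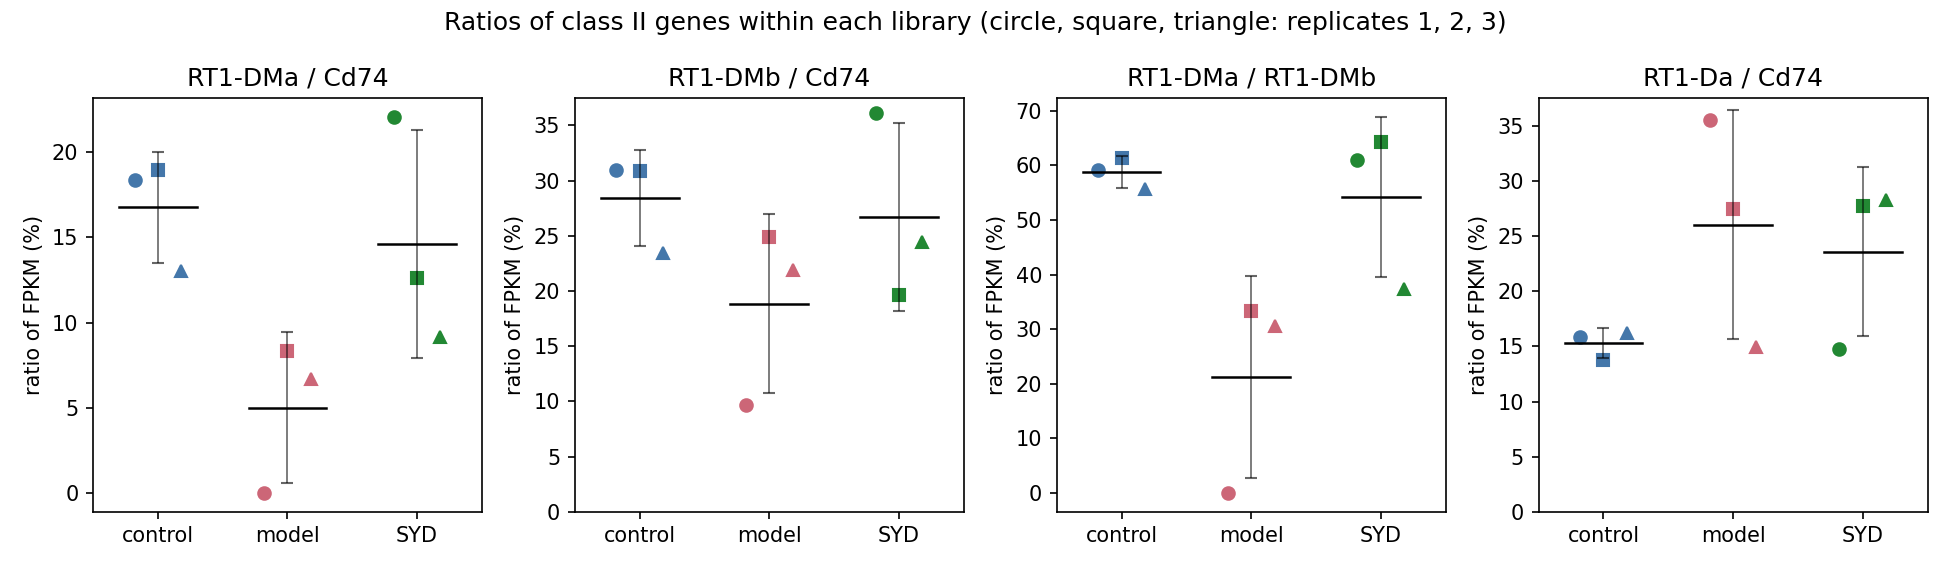
Ratios of FPKM within each library, in percent, with group means (lines) and SD (bars), n = 3 libraries per group. RT1-DMa is at or below 8.32% of Cd74 and 33.4% of RT1-DMb in the model libraries, below all control and SYD libraries, while RT1-DMb and RT1-Da relative to Cd74 overlap.

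In the SYD group, RT1-DMa was higher than in the model group, and no other class II gene passed the criteria. Of the 6 tested genes 1 was called higher and 0 lower, against 3.62% of all tested genes called higher. By adjusted p in limma, 0 members and 0% of all tested genes were under 0.05, and 1 member had an unadjusted p under 0.05. With voom on recovered reads, 0 of the 6 were called. The median log2 fold change was -0.004 over the 6 genes and 0.22 over all tested genes. This comparison and the one above share the model libraries, so opposite signs in them are not independent.

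RT1-DMa was at 10.2, 6.87 and 6.01 FPKM in the SYD libraries, all above the 3 model libraries. The log2 fold change was 1.69 (SE 0.678, unadjusted p = 0.0443, adjusted p = 0.723, limma; exact permutation p = 0.1). No overlap in this direction was seen for 7.89% of all tested genes, and for none of the other 7 class II genes. The call was lost in 5 of the 6 fits that each left out 1 library. Of these, the fit without model library 1 gave 0.99 (unadjusted p = 0.0409, limma), just under the fold criterion, and the other 4, without model library 2 or any of the SYD libraries, gave unadjusted p-values of 0.0543 to 0.145 in limma. It was called without model library 3, at 2.14 (unadjusted p = 0.0292, limma). As a share of Cd74, RT1-DMa was 22.1%, 12.6% and 9.13% in SYD libraries, above all model libraries (exact permutation p = 0.1), and as a share of RT1-DMb it was 61.0%, 64.2% and 37.4%.

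RT1-DMb was at 16.7, 10.7 and 16.1 FPKM in SYD libraries, overlapping the model group (log2 fold change 0.56, SE 0.336, unadjusted p = 0.140, limma). RT1-Ba had 18 and 13 reads in SYD libraries 1 and 2, at 0.490 and 0.331 FPKM, and none in library 3. RT1-Bb was at 0.829, 0.519 and 0 FPKM in the same libraries. Both chains of the B isotype were thus at 0 in SYD library 3, where 72.7% of the reads were mitochondrial. The floor there was 0.189 FPKM for RT1-Ba and 0.0474 for RT1-Bb.

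RT1-Da was at 6.80, 15.1 and 18.6 FPKM, RT1-Db1 at 2.37, 2.85 and 4.10, and Cd74 at 46.1, 54.6 and 65.8 in SYD libraries. All 3 genes overlapped the model group, with log2 fold changes of -0.07, -0.05 and 0.04 that had SEs of 0.571, 0.624 and 0.367. Such errors leave room for changes in either direction. Ciita was at 1.07, 0.392 and 0.130, against 0.354 to 4.001 in the model group (log2 fold change -0.95, SE 0.579, unadjusted p = 0.149, limma). It was called lower without model library 2, at -1.49.

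Against the control group, 0 of the 6 tested genes were called in the SYD group, while 16.5% of all tested genes were called in either direction. An adjusted p under 0.05 in limma was found for 0 members and for 17.3% of all tested genes, and 0 members had an unadjusted p under 0.05. Voom on recovered reads also called 0. Log2 fold changes ran from -0.40 (RT1-DMa, SE 0.208) to 0.37 (RT1-Da, SE 0.371), with a median of -0.20 beside 0 over all tested genes. RT1-Ba and RT1-DMb were lower in all SYD than in all control libraries, and 22.2% of all tested genes were lower in this way. For RT1-DMa, SYD library 1 (10.2) reached the control range of 9.35 to 11.0, and libraries 2 and 3 were below it. Without SYD library 1, its change was -0.59 (unadjusted p = 0.0116, adjusted p = 0.0686, limma), still short of the fold criterion.

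The other parts of the pathway came from lists of genes, described by counts at the same criteria. These counts stand beside the shares over all tested genes, which were 11.2% lower in model than in control, 3.62% higher in SYD than in model, and 9.22% lower and 7.25% higher in SYD than in control. Of the 13898 tested genes, 493 were higher in model than in control. With lists this short, 1 to 3 called genes are not set apart from those shares. Genes named beside a count because they were called, and not by the naming rule, were chosen after their values were seen. Of the factors that act on class II promoters or on Ciita, 12 were tested. In the model group 2 were lower than in control, Irf8, an interferon regulatory factor of myeloid and B cells (log2 fold change -1.65), and Nfya, a subunit of NF-Y (-1.18), and the median was -0.72. In the SYD group 3 were lower than in control, each with an adjusted p under 0.05 in limma. These were Irf4, a factor of B and plasma cells (-2.44, SE 0.224, adjusted p = 0.00703, limma), Irf8 (-1.30, adjusted p = 0.0354, limma) and Irf2 (-1.02, adjusted p = 0.0310, limma). Irf4 was at 6.23 to 7.47 FPKM in control and 0.138 to 0.816 in SYD libraries, without overlap. None of the 12 was called between SYD and model. Spi1, the PU.1 factor of myeloid and B cells, was at 27.0 to 33.3 in control, 4.52 to 37.3 in model and 21.5 to 26.1 in SYD libraries.

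Interferon gamma itself (Ifng) was at 0 in all 9 libraries. Of 9 tested genes of its pathway, 0 were called in the model group against control. In the SYD group both receptor chains were higher than in control, Ifngr1 by 0.95 (adjusted p = 0.0123, limma) and Ifngr2 by 0.84 (adjusted p = 0.0181, limma) on the log2 scale, under the fold criterion. Ifngr2 was at 5.32 to 7.03 FPKM in control, 3.06 to 7.35 in model and 11.3 to 11.8 in SYD libraries, and it was called higher against the model group (1.14). Gbp5, an interferon-induced GTPase, was called lower in SYD than in control (-1.15). Jak1, a kinase that binds the receptor chains, was at 12.1 to 22.8 FPKM over all libraries.

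Of 16 tested genes of endosomal processing, 1 was lower in the model group. Marchf1, the ubiquitin ligase that removes class II and Cd86 from the surface, was at 1.56, 1.63 and 2.22 FPKM in control and 0 in all 3 model libraries (log2 fold change -1.48, SE 0.212, adjusted p = 0.0382, limma). In SYD libraries it was at 0.279, 0.273 and 1.72. Its fitted change depends on the pseudocount, since 1 group is at 0. The protease inhibitor Cst3 was higher in SYD than in control (1.51, unadjusted p = 0.0163, limma), and the cathepsin gene Ctsz was higher in SYD than in model (1.13). The proteases Ctsb and Ctsd were not called in any comparison. The summed FPKM of the list was 771 to 897 in control, 839 to 1174 in model and 1236 to 2009 in SYD libraries, with no overlap of the SYD group with either other group. Without Cst3, a sum added after the data had been seen, the values were 596 to 632 in control, 605 to 692 in model and 660 to 974 in SYD libraries, so that SYD overlapped model (exact permutation p = 0.3) and not control (exact permutation p = 0.1).

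Of 7 tested costimulatory genes, Cd86 and Cd40 were lower in the model group. Cd86, a ligand for CD28 on T cells, was at 1.03, 0.918 and 1.30 FPKM in control, 0 in all 3 model libraries and 0.483, 1.23 and 0 in SYD libraries (model against control -1.05, SE 0.171, adjusted p = 0.0414, limma). Cd40, the receptor for T cell help, fell by 1.56 on the log2 scale. Cd40 (1.44) and Icam1, an adhesion molecule (2.05), were called higher in SYD than in model. Cd40 was at 0, 0.788 and 0 FPKM in model and 2.35, 2.53 and 2.03 in SYD libraries. Icam1 was at 0, 5.15 and 0 in model and 6.92, 8.57 and 4.72 in SYD libraries, which overlap. For both genes the zeros lay in model libraries 1 and 3, those with the fewest non-mitochondrial reads. Cd9, a tetraspanin, was higher in SYD than in control (1.21). Of 16 tested class I genes, 3 were lower in the model group (Tap1, RT1-A2 and RT1-S3), 1 was higher in SYD than in model (RT1-A2) and 2 were lower in SYD than in control (RT1-S3 and Psmb9). B2m, the light chain of class I, was at 170 to 237 FPKM in control, 249 to 345 in model and 211 to 331 in SYD libraries, and was not called.

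The remaining class II chains were at low levels. RT1-DOa, part of the dimer that restrains RT1-DM, was at 0.199, 0.302 and 0.347 FPKM in control, 0 in all model libraries and 1.997, 0.633 and 0.891 in SYD libraries. RT1-DOb, its partner, was at 0.32 to 1.41 in control, 0 to 0.33 in model and 0 to 0.19 in SYD libraries. Both were below the filter. RT1-Db2, a D beta copy close to RT1-Db1, was at 0.778 to 1.40 in control, 0.0219 to 1.75 in model and 0.226 to 0.490 in SYD libraries, and was not called. The 4 chains outside the members that the table lists thus did not exceed 2.53 FPKM in sum in any library.

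Markers of the cells that carry class II are given beside these levels. Of 9 tested B cell genes, 7 were lower in the model group than in control (median -3.84; 3 with an adjusted p under 0.05 in limma) and 9 were lower in the SYD group than in control (8 with an adjusted p under 0.05 in limma). The summed FPKM of the 12 B cell genes was 343 to 445 in control, 16.4 to 72.7 in model and 17.8 to 54.6 in SYD libraries. Cd79a, a B cell receptor subunit, was at 155 to 197 in control, 1.29 to 31.4 in model and 1.06 to 21.1 in SYD libraries. Cr2 and Fcer2 were at 0 in all model libraries. Cd72, a B cell inhibitory receptor, was at 30.4 to 49.4 in control, 0 to 1.35 in model and 0.994 to 4.48 in SYD libraries, and fell by 4.80 on the log2 scale in model against control (SE 0.451, adjusted p = 0.0382, limma). Cd74 was 13.1% to 17.9% of the B cell sum in control, 108% to 202% in model and 120% to 260% in SYD libraries, so Cd74 did not follow the B cell sum. The part of B cells in the lower RT1-DMa and RT1-DMb was not tested.

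The 12 macrophage genes summed to 154 to 194 FPKM in control, 120 to 285 in model and 170 to 332 in SYD libraries, with no gene called in the model group and none at 0 throughout a group. In SYD, Cd14, an endotoxin coreceptor, was higher than in control (1.37, adjusted p = 0.0165, limma) and than in model (2.23), and Csf1r, the macrophage growth factor receptor, was higher than in model (1.57). Cd74 was 31.6% to 37.8% of this sum in control, 24.1% to 48.5% in model and 13.9% to 38.6% in SYD libraries. RT1-DMa was 4.83% to 7.16% of it in control, 0% to 3.25% in model and 3.06% to 3.53% in SYD libraries. Set against macrophage genes, RT1-DMa was thus lower in both operated groups than in control, without overlap (exact permutation p = 0.1 for each), and SYD and model overlapped. Its partner RT1-DMb did overlap, at 8.68% to 11.7% of the macrophage sum in control, 2.66% to 10.6% in model (exact permutation p = 0.3) and 4.77% to 9.45% in SYD libraries (exact permutation p = 0.2).

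Of 5 tested dendritic cell genes, Flt3, a growth factor receptor, was lower in model than in control (-1.03). Clec10a, a lectin of dendritic cells and macrophages, was higher in SYD than in control (1.54, adjusted p = 0.0219, limma), at 3.32 to 4.15 FPKM in control, 3.02 to 10.4 in model and 9.67 to 20.2 in SYD libraries. The summed level of the list was 11.0 to 12.5 in control, 11.4 to 16.3 in model and 18.5 to 27.7 in SYD libraries. Clec10a alone gave 9.67 to 20.2 FPKM of the SYD sums, so the higher SYD sum rests mostly on this gene. The median log2 fold change of the 5 tested genes was -0.17 in SYD against control. Ccr7, Cd207, Siglech and Ccl22 were at 0 in all model libraries, and Xcr1 and Cd207 in all SYD libraries. In control, Ccr7, Cd207, Ccl22 and Xcr1 reached at most 0.169 FPKM, and Siglech was at 0.527 to 1.58. These zeros may thus lie below the limit of detection. T cell genes were low, with sums of 8.15 to 13.01, 2.02 to 16.4 and 6.29 to 10.2 FPKM. Of 5 tested T cell genes, 1 was lower in model than in control, and 1 was lower and 1 higher in SYD than in control. Cd3g, a chain of the T cell receptor complex, was at 3.14 to 6.03 FPKM in control, 0 in all model and 0 to 1.65 in SYD libraries. Cd8a, of the same list, was at 0.480 to 0.842 in control, 0 to 2.82 in model and 1.06 to 4.44 in SYD libraries.

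Other blood cell genes moved as well. Of 11 tested neutrophil genes, 6 were lower in model than in control and 9 were lower in SYD than in control. Elane, a neutrophil protease made early in maturation, was at 104 to 176 FPKM in control, 0 to 7.90 in model and 5.62 to 12.1 in SYD libraries. The neutrophil sum nonetheless overlapped, at 3116 to 5978 in control, 78.2 to 7999.7 in model and 561 to 3461 in SYD libraries. Of 9 tested erythroid genes, 0 were called in model and 6 were lower in SYD than in control. Of 10 tested endothelial genes, 2 were higher in model and 6 were higher in SYD than in control. The part of these cells in the class II levels was not tested.

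**Figure D5:**
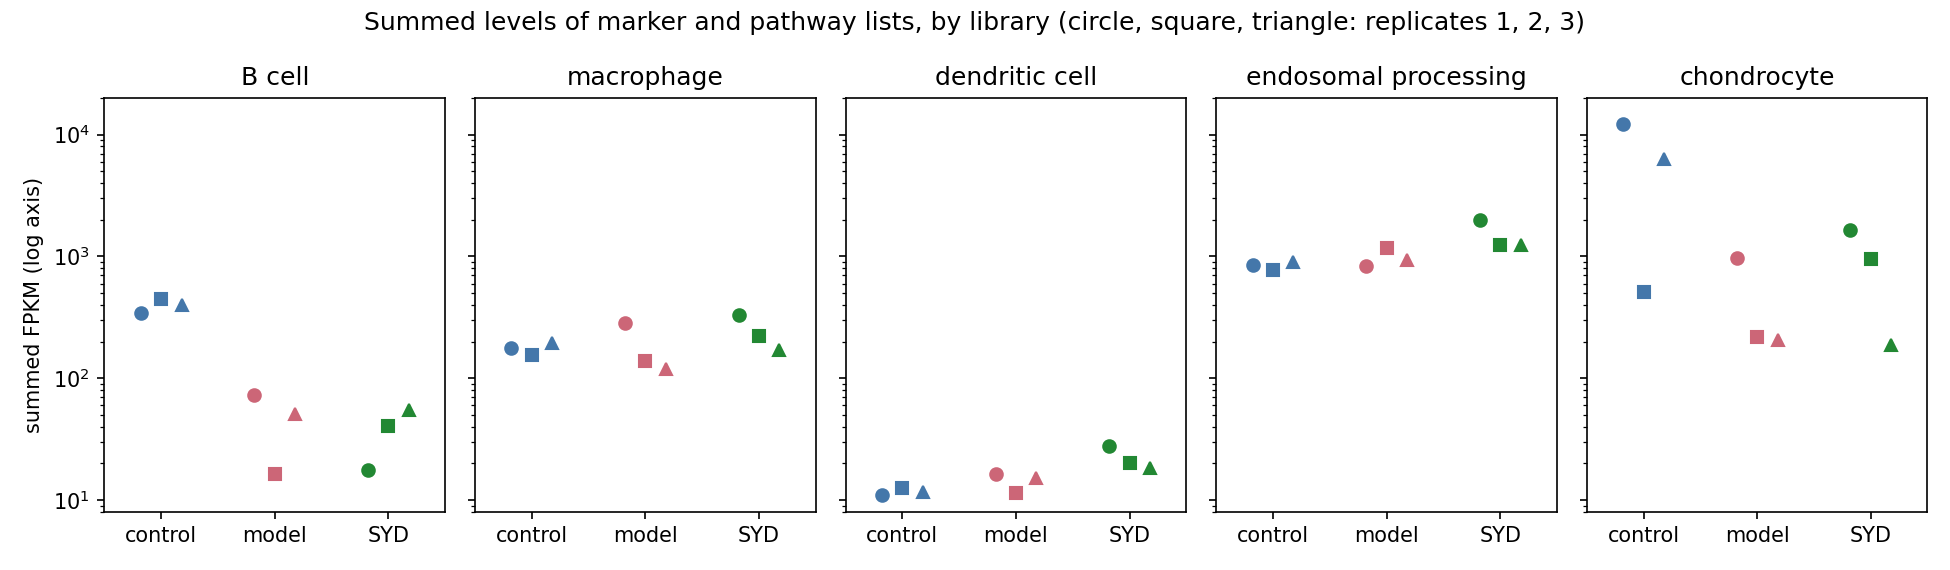
Summed FPKM (log axis, shared) of the B cell, macrophage, dendritic cell, endosomal processing and chondrocyte lists in each library, 3 per group. The B cell sum is 343 or more in control libraries and 72.7 or less in all others, whereas the macrophage sums overlap.

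The genes most like the chains in pattern were ranked by Pearson's r over the 9 libraries with the mean centred log2(FPKM + 1) of RT1-Ba, RT1-Bb, RT1-Da, RT1-Db1 and Cd74, among the 5650 others whose mean FPKM reached 5. The 10 highest had r of 0.83 to 0.90. They were Llph-ps1, S100a9, Hgs, Bet1l, S100a8, Runx1, Rin3, Idh3g, Mmp8 and Eaf1. S100a8, S100a9 and Mmp8 are products of neutrophils, and S100a9 ran from 15.8 FPKM in model library 2 to 3345 in model library 1. Those 2 libraries were also the lowest and highest for Cd74 and RT1-Db1. The libraries share 1 scaling each and fall into 3 groups, so these values describe the pattern only. Among the class II genes themselves, r with this mean was 0.96 for Cd74, 0.89 for RT1-Db1, 0.69 for RT1-Da, 0.29 for Ciita, 0.13 for RT1-Ba, 0.04 for RT1-DMb, -0.26 for RT1-DMa and -0.66 for RT1-Bb. The 5 chains themselves enter the mean.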

How the data were processed

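The authors deposited 1 table of FPKM per gene for 9 libraries (TruSeq kit) from knee cartilage, although the labels' extraction text speaks of retinas. The submitters' processing notes name HISAT2 2.0.5 and hg38, a human build, while the identifiers are rat genes. The counting tool is not given in the sources used here. Whole reads were recovered for all values (tolerance 0.1 read). The deposited FPKM had been scaled by effective library sizes of 0.193 to 2.18 times the reads. Genes whose mean FPKM reached 0.5 were fitted with limma 3.58.1 (R 4.3.3; lmFit, eBayes with a trend, two-sided) on log2(FPKM + 1), which understates changes of low genes, using the 6 libraries compared. P-values were Benjamini-Hochberg adjusted over 13898 genes. Single values had exact two-sided permutation tests. Alternatives covered pseudocounts, filters, TPM with or without mitochondrial genes, quantile normalization, 1 fit of all 9 libraries, robust eBayes, voom, a mitochondrial covariate, a replicate block and single libraries left out. The fit was tested on simulated data. Members and lists were chosen with earlier results of these data known. The rule for named genes took all 8 members, the 10 most alike and, per list, the 3 highest genes and those with an adjusted p under 0.05 (at most 6), of which the text names only some. The result of 1 gene on the B cell list is not reported here.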

Additional observations from a re-analysis of the deposited data

How the results depend on the processing

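The lower RT1-DMa and RT1-DMb in model against control, and the higher RT1-DMa in SYD against model, kept their direction under every alternative run. Rescaling moved all genes: the median log2 fold change of model against control was -0.23 as reported, -2.60 in TPM and -0.64 in TPM without mitochondrial genes. In model against control, 1 member was called, against 0 with a pseudocount of 0.1 or 0.01, 6 in TPM, 2 in TPM without mitochondrial genes (RT1-DMa and RT1-DMb), 3 in voom (these and RT1-Db1), 2 with the mitochondrial share as a covariate (RT1-Db1 and Cd74, not RT1-DMa), and 0 to 2 when single libraries were left out (RT1-DMa with Ciita, higher, without model library 2, and with RT1-DMb without model library 3). In SYD against model, 1 was called, against 0 with either pseudocount, no filter, TPM, TPM without mitochondrial genes, the replicate block, voom or the mitochondrial covariate, and 0 to 1 without single libraries (RT1-DMa without model library 3, but Ciita, lower, without model library 2). In SYD against control, 0 were called, and 4 in TPM (RT1-Db1, RT1-DMa, RT1-DMb and Cd74, all lower). Voom without a filter, added after seeing the data, tested all 8 members. It called 2 lower in model against control (RT1-Ba and RT1-DMa), beside 3297 of all 21960 genes. In SYD against model it called 1 higher (RT1-DMa), beside 1447 of all genes, and in SYD against control 0. Over all 13898 tested genes, 1553 were called lower in model against control as reported and 10407 in TPM. The number was 1913 in TPM without mitochondrial genes, 2474 in voom and 1183 with the covariate. In SYD against control, 5901 were lower in TPM, against 1282 as reported. The member counts in TPM are thus not set apart from those over all genes. The causes of these shifts were not tested.

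Log2 fold changes that turned sign were mostly those near 0. In model against control, TPM gave -2.54 for RT1-Da, -2.67 for RT1-Db1 and -1.36 for Ciita, and the mitochondrial covariate gave -0.89, -2.52 and -1.41. RT1-Db1 was -0.049 and -0.072 with pseudocounts of 0.1 and 0.01, -0.26 in TPM without mitochondrial genes, -1.42 in voom and -1.22 in voom without a filter, which was chosen after seeing the data. Ciita was -0.51 and -0.19 in these 2 voom fits. Without single libraries, RT1-Da ranged from -0.075 to 0.71, RT1-Db1 from -0.37 to 0.66 and Cd74 from -0.48 to 0.13. In SYD against model, RT1-Da was 1.43 in TPM, 0.13 in TPM without mitochondrial genes, 0.14 in voom, 0.17 in voom without a filter and 0.50 with the covariate. RT1-Db1 was 1.30, 0.24, 1.24, 1.15 and 0.65 in the same fits, and 0.056 and 0.078 with the pseudocounts. Ciita was 0.15 in TPM and RT1-Bb -0.45 in voom without a filter. Without single libraries, RT1-Da ranged from -0.34 to 0.45, RT1-Db1 from -0.65 to 0.38 and Cd74 from -0.29 to 0.32. In SYD against control, RT1-Da and RT1-Db1 were -1.11 and -1.37 in TPM. With the covariate, RT1-Da, RT1-Db1, RT1-DMa and Ciita were -0.49, -0.46, 0.045 and 0.36. RT1-Db1 was -0.020 in TPM without mitochondrial genes, -0.086 in voom with or without a filter, and -0.16 to 0.14 without single libraries.

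The replicate numbers did not pair the samples: deviations of libraries with the same number correlated at -0.27 to 0.19. With the number as a block, 1 member was called in model against control, 0 in SYD against model and 0 in SYD against control. Over all tested genes, the block moved the number with an adjusted p under 0.05 from 360, 0 and 2407 to 0 in each comparison. The groups had 3 libraries each, and the shallowest, model library 1, had 1744769 non-mitochondrial reads. A control-like level of RT1-Ba was near the limit of detection there (floor 0.597 FPKM, control 0.603 to 0.771). For RT1-Bb the floor was 0.150 FPKM, for counting error only, below its control values of 0.366 to 0.499.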
